A study of Mus musculus with 6 samples.

Results

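The ectodysplasin pathway was followed through 6 genes: the ligand Eda, the receptors Edar, Eda2r and Tnfrsf19, and the adaptors Edaradd and Traf6. They were taken by gene symbol, and all 6 had a row among the 24453 rows of the deposited count files. Skin cells taken from newborn back skin (postnatal day 0) had been sorted and their RNA sequenced in 3 libraries labelled 2KO (genotype Ring1a-/- Ring1b-/-) and 3 libraries labelled control. The genes behind these alleles, Ring1 and Rnf2, code for the catalytic subunits of Polycomb repressive complex 1, which keeps developmental genes silent by marking histones with ubiquitin. The sources used here give neither a Cre driver, nor the deleted part of each gene, nor whether controls carry a Ring1a allele. The cells are labelled as hair follicle cells, yet the only gate the protocol spells out is the interfollicular one (EpCAM and Sca1 positive, α6-integrin high). The sources do not say that the libraries came from separate animals, so the p-values measure the spread between these libraries, which may be partly technical.

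Ectodysplasin is a ligand of the tumor necrosis factor family made by skin epithelium. A longer splice form of it binds EDAR and a shorter one binds EDA2R (also called XEDAR). EDAR recruits the adaptor EDARADD through a death domain, and a relay of TRAF6, the kinase TAK1 with its TAB partners and the IκB kinase complex then frees NF-κB, which switches on target genes in the hair placode. Mice that lack Eda, Edar or Edaradd lose the same subset of hairs, teeth and glands, and variants in the human genes cause hypohidrotic ectodermal dysplasia. Tnfrsf19 encodes TROY, a receptor related to EDAR that is not known to bind ectodysplasin.

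Polycomb complexes are known to gather at promoters rich in CG dinucleotides, so the 250 bases before the RefSeq start of 4 members (GRCm38.p6, 5′ to 3′ along the gene, CG in capitals) are shown for the ligand, its 2 receptors and the EDAR adaptor. No binding or chromatin mark was measured in these libraries.
Eda (chrX:99975356-99975605, plus strand): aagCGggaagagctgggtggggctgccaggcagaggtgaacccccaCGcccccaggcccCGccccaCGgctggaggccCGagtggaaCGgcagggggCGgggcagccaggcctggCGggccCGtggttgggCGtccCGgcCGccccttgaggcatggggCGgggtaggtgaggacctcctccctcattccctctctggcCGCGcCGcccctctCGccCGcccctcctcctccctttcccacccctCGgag
Edar (chr10:58675697-58675946, minus strand): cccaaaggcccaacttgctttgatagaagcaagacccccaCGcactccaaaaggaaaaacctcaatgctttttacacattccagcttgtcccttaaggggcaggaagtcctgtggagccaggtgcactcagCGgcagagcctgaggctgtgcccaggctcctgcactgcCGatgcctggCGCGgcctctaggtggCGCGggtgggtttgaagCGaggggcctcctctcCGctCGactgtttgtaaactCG
Eda2r (chrX:97377210-97377459, minus strand): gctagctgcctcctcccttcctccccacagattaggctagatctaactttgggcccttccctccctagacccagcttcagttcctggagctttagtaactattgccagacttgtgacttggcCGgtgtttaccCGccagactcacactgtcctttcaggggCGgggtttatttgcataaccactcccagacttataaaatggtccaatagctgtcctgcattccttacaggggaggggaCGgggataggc
Edaradd (chr13:12520451-12520700, minus strand): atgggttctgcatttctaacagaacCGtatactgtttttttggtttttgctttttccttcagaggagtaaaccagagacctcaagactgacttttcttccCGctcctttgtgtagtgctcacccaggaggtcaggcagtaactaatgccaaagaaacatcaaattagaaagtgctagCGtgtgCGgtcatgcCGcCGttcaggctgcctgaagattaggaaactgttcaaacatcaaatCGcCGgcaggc
The Eda window held 19 CG and 75.6% G and C, and 19.7% of 32851 RefSeq promoter windows of this length held as many CG. Edar had 11 CG (reached by 35.6% of windows) and Edaradd had 8 (reached by 43%). With 4 CG (reached by 62.2%), Eda2r was the one of the 4 below the median window of 6. Traf6 had 13, and the 2 windows listed for Tnfrsf19 had 8 and 9. The letters CTTTGA, a core of sites for LEF and TCF factors searched on both strands, were found once in the Edar window and once in 1 of the Tnfrsf19 windows, against 13.8% of all windows with at least 1. A match of letters is a description and no measured site. GENCODE vM21 placed the start of Eda at the same base, and those of Eda2r, Edaradd and Edar 7, 12 and 42 bases away.

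The libraries held 24.8 to 29.9 M counts in those labelled 2KO and 28.2 to 30.8 M in those labelled control (M, mega). Levels are CPM, counts per megacount after TMM scaling by edgeR. Neither deleted gene was set apart by group. Ring1 was at 1.84, 7.34 and 14.1 CPM in 2KO replicates 1, 2 and 3, against 19.5, 22.4 and 3.37 CPM in control replicates 1, 2 and 3, so control replicate 3 and 2KO replicate 3 lay against their labels. Rnf2 was at 66.4 to 89.2 CPM in 2KO and 47.1 to 79.5 CPM in control. Whole-gene counts are no check of a deletion if the rest of the gene is still transcribed. The groups are therefore named by their labels, and values without both replicate-3 libraries are given beside each call on the pathway and its partner genes. Of the genes behind the sort, Epcam was at 282 ± 65.7 CPM in libraries labelled 2KO and 195 ± 51.8 CPM in those labelled control (SD, n = 3 each). Itga6, which encodes α6-integrin, was at 973 ± 108 CPM in 2KO and 782 ± 97.1 CPM in control, and Ly6a, which encodes Sca1, was at no more than 7.28 CPM in any library. Follicle genes were present in both groups, with Lhx2 at 152 ± 21.2 CPM in 2KO and 291 ± 113 CPM in control, and Sox9 at 331 ± 158 CPM in 2KO and 359.7 ± 130.3 CPM in control. Lhx2 was lower in every library labelled 2KO than in any control library (log2 fold change -0.93, edgeR adjusted p = 0.0558).

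Of the 6 pathway genes, Eda2r rose in the libraries labelled 2KO, to 2.95 times the control level. The other 5 did not pass the threshold, an adjusted p under 0.05 in edgeR's quasi-likelihood test over all 14972 tested genes. Edaradd was the nearest to it, at 93.1 ± 22.9 CPM in 2KO and 155 ± 22.7 CPM in control. Eda, Edar, Tnfrsf19 and Traf6 had groups that overlapped. Over all tested genes 28.4% had groups that did not overlap, in either direction. Each gene described so is to be read beside that share. All 6 genes passed the low-count filter, each with at least 78 counts in every library. Across all tested genes the share called was 9.02%, made up of 6.61% higher and 2.42% lower in 2KO, so 1 gene of 6 is not a result about the pathway as a whole. Read counts are from bulk samples, in which fewer cells of a type and less RNA per cell cannot be told apart.

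**Figure D1:**
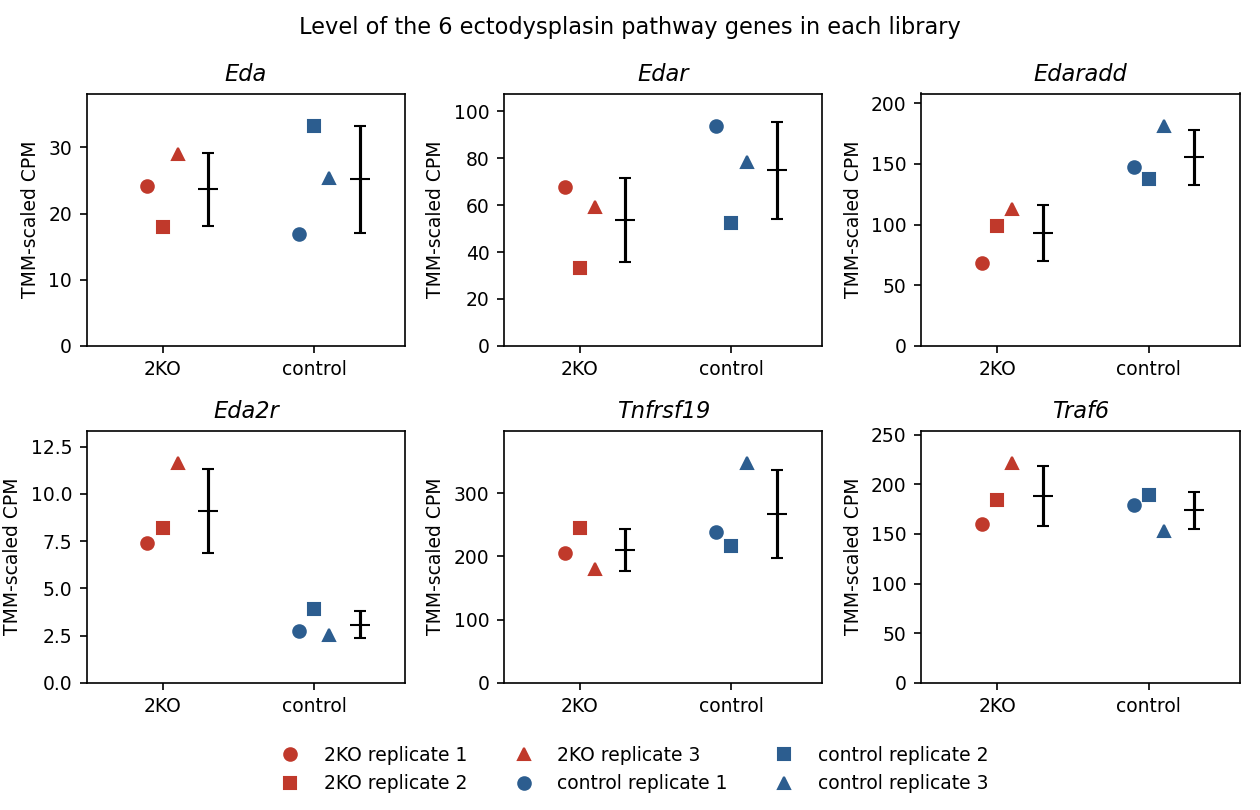
Level of each pathway gene in TMM-scaled CPM (y axis, from 0) in the libraries labelled 2KO (red) and control (blue). Symbols mark replicates, and bars give the mean ± SD (n = 3). The groups do not overlap for Eda2r, higher in 2KO, or for Edaradd, lower in 2KO.

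Eda (chromosome X, 99975606 to 100400762, plus strand, 12 annotated transcripts) gave the ligand's level. It was at 24.1, 17.9 and 29.0 CPM in 2KO replicates 1, 2 and 3, against 16.9, 33.2 and 25.4 CPM in control replicates 1, 2 and 3. The 2KO values lay wholly inside the control range. The log2 fold change of 2KO over control was -0.09 (SE 0.30, edgeR adjusted p = 0.913), and its 95% interval, -0.77 to 0.59, reaches down to 0.588 times the control level. Counts per gene do not tell the splice forms that bind EDAR and EDA2R apart.

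Edar (chromosome 10, 58600789 to 58675654, minus strand) encodes the receptor of the placode and hair germ. Its values were 67.8, 33.3 and 59.3 CPM in 2KO replicates 1, 2 and 3, against 93.6, 52.5 and 78.4 CPM in control replicates 1, 2 and 3. The 2KO values reached lower than any control library, and 2 of the 3 lay within the control range. The log2 fold change was -0.48 (SE 0.30, edgeR adjusted p = 0.412, 95% interval -1.16 to 0.19), so that neither an equal level nor one of 0.447 times control lies outside the interval. In both groups replicate 2 was the lowest library.

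Eda2r (chromosome X, 97333840 to 97377216, minus strand) encodes the receptor of the shorter splice form and is known as a p53 target. It was at 7.41, 8.21 and 11.6 CPM in 2KO replicates 1, 2 and 3, from 189, 246 and 296 counts. In control replicates 1, 2 and 3 it was at 2.77, 3.91 and 2.55 CPM, from 78, 121 and 78 counts. Every library labelled 2KO was above every library labelled control, as for 28.4% of all tested genes in either direction. The mean was 9.08 ± 2.23 CPM in 2KO and 3.07 ± 0.729 CPM in control (SD, n = 3 each), a log2 fold change of 1.56 (SE 0.38, edgeR adjusted p = 0.0323, 95% interval 0.71 to 2.41). The direction held in all 15 alternatives, which reuse the same counts of groups that do not overlap, while the call held in 8 of them. Without both replicate-3 libraries the log2 fold change was 1.23 (edgeR adjusted p = 0.270, 2 libraries against 2), and without both replicate-1 libraries it was 1.63 (adjusted p = 0.0795). Of the fits that left out a single library, the call held only without 2KO replicate 1 (adjusted p = 0.0411), and the adjusted p was 0.0734 and 0.107 without 2KO replicates 2 and 3, and 0.0880, 0.0516 and 0.115 without control replicates 1, 2 and 3.

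Eda2r and Eda lie on the X chromosome, and the libraries differed in Xist, the RNA that silences one X chromosome in females. Xist was at 5361, 4952 and 10.4 CPM in 2KO replicates 1, 2 and 3, against 2.48, 9.27 and 4555 CPM in control replicates 1, 2 and 3. Each group held libraries high and low in Xist, so the libraries of a group were not all repeats of the same sample. Among the libraries high in Xist, Eda2r was at 7.41 and 8.21 CPM in 2KO and at 2.55 CPM in control. Among those low in Xist it was at 11.6 CPM in 2KO and at 2.77 and 3.91 CPM in control, so the order was the same in both sets. With Xist as a covariate the log2 fold change of Eda2r was 1.72 (SE 0.38, edgeR adjusted p = 0.0398) and that of Eda was -0.05 (adjusted p = 0.963). Ring1 did not overlap between the libraries high and low in Xist. In those high in Xist it was at 1.84 and 7.34 CPM in 2KO and 3.37 CPM in control. In those low in Xist it was at 14.1 CPM in 2KO and 19.5 and 22.4 CPM in control. The cause was not tested.

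Eda2r was also set beside markers of dermal fibroblasts, cells outside an epithelial gate. Of 8 such genes 7 were tested, and 2 rose in 2KO and none fell, against 6.61% higher and 2.42% lower over all tested genes. Fold changes lay above 0 for 5 of the 7 and below 0 for 2, Lum (log2 fold change -0.85) and Col1a2 (-0.13). Twist2, with too few counts to be tested, was at a mean of 0.0131 CPM in 2KO and 0.192 CPM in control. Pdgfra, a growth factor receptor of mesenchymal cells, was at 10.2 ± 5.23 CPM in 2KO and 0.896 ± 0.315 CPM in control (edgeR adjusted p = 0.00348). Fbn1, which encodes the matrix protein fibrillin and is named after its values were seen, was at 99.7 ± 37.2 CPM in 2KO and 18.4 ± 8.55 CPM in control (adjusted p = 0.00405). Dcn, the most abundant of the 8, was at 497, 527 and 399 CPM in 2KO and at 459, 272 and 414 CPM in control. The summed level of the list was 704 to 874 CPM in 2KO and 413 to 771 CPM in control, and none of its genes was at 0 in all libraries. The part of these cells in the rise of Eda2r was not tested.

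**Figure D2:**
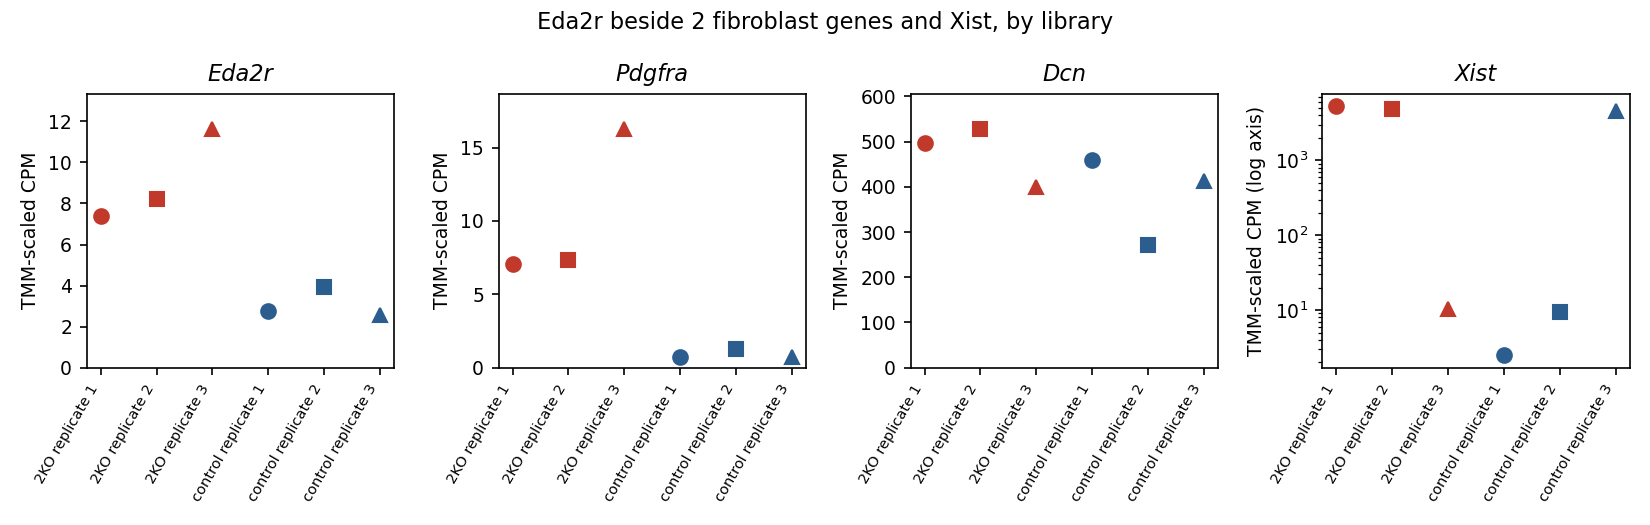
TMM-scaled CPM by library (y axes, log axis for Xist) of Eda2r, of the fibroblast genes Pdgfra and Dcn, and of Xist, for libraries labelled 2KO (red) and control (blue). Eda2r and Pdgfra are above every control library in all 3 libraries labelled 2KO, whereas Dcn overlaps between the groups and Xist is high in 2KO replicates 1 and 2 and control replicate 3.

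Tnfrsf19 (chromosome 14, 60963875 to 61046490, minus strand), the gene of TROY, had the highest level of the 6 in CPM per kb. It was at 205, 245 and 179.8 CPM in 2KO replicates 1, 2 and 3, against 238, 216 and 347 CPM in control replicates 1, 2 and 3. The groups overlapped, and control replicate 3 stood above the other 5 libraries. The log2 fold change was -0.35 (SE 0.21, edgeR adjusted p = 0.408, 95% interval -0.83 to 0.13), and -0.01 without both replicate-3 libraries (adjusted p = 0.985). A long noncoding RNA, Gm41168, partly overlaps the gene on the other strand and shares no exon base with it.

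Edaradd (chromosome 13, 12472632 to 12520438, minus strand), the adaptor of EDAR, was at 68.0, 98.6 and 113 CPM in 2KO replicates 1, 2 and 3. In control replicates 1, 2 and 3 it was at 148, 138 and 181 CPM. Each library labelled 2KO was below each library labelled control, and 28.4% of all tested genes did not overlap in either direction. The log2 fold change was -0.74 (SE 0.22, unadjusted p = 0.00738, edgeR adjusted p = 0.0684, 95% interval -1.23 to -0.25), which missed the threshold. With DESeq2 the gene passed it as lower in 2KO (log2 fold change -0.73, adjusted p = 0.0299), and with limma-voom it did not (adjusted p = 0.0515). Without both replicate-3 libraries the value was -0.78 (edgeR adjusted p = 0.185).

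Traf6 (chromosome 2, 101678429 to 101701669, plus strand) encodes a ubiquitin ligase that carries signals of several receptor families. It was at 160.5, 184 and 221 CPM in 2KO replicates 1, 2 and 3, against 179.7, 189 and 153 CPM in control replicates 1, 2 and 3. The groups overlapped, with a log2 fold change of 0.11 (SE 0.18, edgeR adjusted p = 0.787, 95% interval -0.29 to 0.51). Of the 6 genes it had the smallest spread in control, a coefficient of variation of 10.7%.

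Levels of different genes were compared per kb of annotated exon. In the libraries labelled 2KO the order of mean CPM per kb was Tnfrsf19 (44.3 ± 6.93), Traf6 (23.9 ± 3.88), Edar (14.7 ± 4.94), Edaradd (14.0 ± 3.43), Eda (3.47 ± 0.813) and Eda2r (1.54 ± 0.379). In those labelled control it was Tnfrsf19 (56.3 ± 14.8), Edaradd (23.3 ± 3.40), Traf6 (22.1 ± 2.37), Edar (20.6 ± 5.72), Eda (3.69 ± 1.19) and Eda2r (0.522 ± 0.124). Edar and Edaradd overlapped in 2KO, and Edaradd, Traf6 and Edar overlapped in control. The other neighbours in each order did not overlap. Scaled by the longest transcript, Traf6 (28.2 ± 3.03 CPM per kb) came before Edaradd in control as well. The sources used here do not name the annotation used for counting, so these lengths are those of GENCODE vM21.

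**Figure D3:**
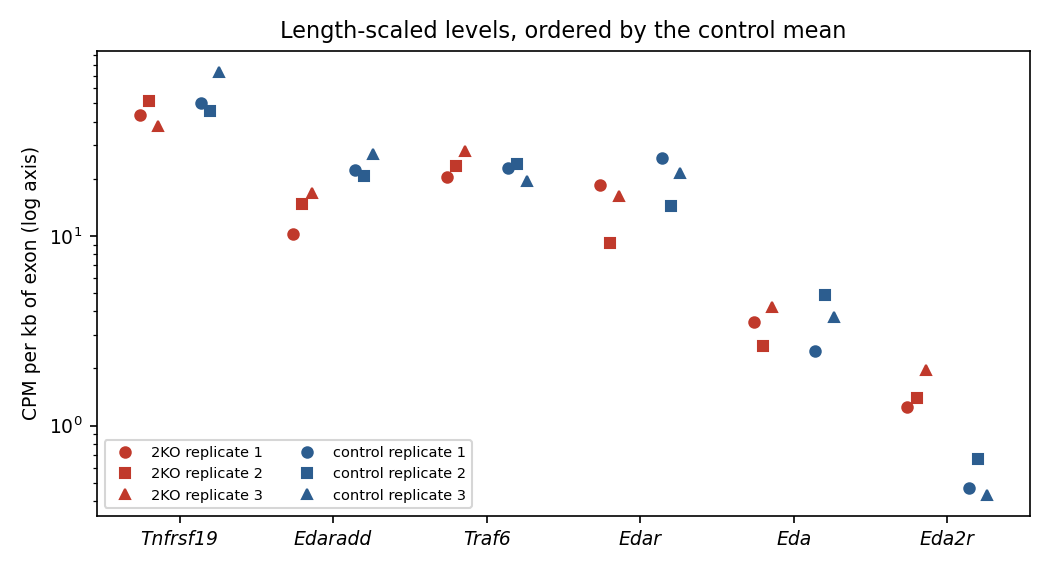
Level of each pathway gene in CPM per kb of exon (y axis, log axis), for 3 libraries labelled 2KO (red) and 3 labelled control (blue), ordered by the control mean. Tnfrsf19 is highest and Eda2r lowest in both groups, and Eda2r lies closer to Eda in 2KO than in control.

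Ratios within a library do not depend on its total. Eda2r counts amounted to 10.9%, 24.6% and 19.6% of Edar counts in 2KO replicates 1, 2 and 3, against 2.96%, 7.44% and 3.25% in control replicates 1, 2 and 3 (not scaled for length). The groups did not overlap, and the two-sided exact permutation p was 0.1, the smallest that 3 libraries against 3 allow. Edaradd counts were 1.00, 2.96 and 1.90 times those of Edar in 2KO, and 1.58, 2.62 and 2.31 times in control (exact permutation p = 0.7). Eda counts were 35.6%, 53.6% and 48.8% of those of Edar in 2KO, and 18.0%, 63.2% and 32.4% in control (exact permutation p = 0.6). For Edaradd and Eda over Edar the group means thus differed by less than the SD of the libraries.

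Genes whose log2 CPM followed a member most closely over the 6 libraries were sought for Edar and Eda2r among 12514 genes with a mean of at least 2 CPM. For Edar they were Mcc (Pearson r = 0.994), F8 (0.992) and Nr3c2 (0.991), the last encoding the mineralocorticoid receptor. Mcc was at a mean of 244 CPM in 2KO and 312 CPM in control. For Eda2r they were Mmp17 (0.996), a membrane-bound metalloproteinase gene, Pdgfra (0.995) and Rasgrf1 (0.993), which encodes a guanine nucleotide exchange factor. Mmp17 was at a mean of 10.9 CPM in 2KO and 2.07 CPM in control, and Rasgrf1 at 23.3 CPM in 2KO and 4.04 CPM in control. These are the highest of many correlations over 6 libraries that also share their group difference.

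Among the members themselves, the highest correlation over the 6 libraries was that of Edaradd with Tnfrsf19 (Pearson r = 0.614). The lowest was that of Edaradd with Eda2r (-0.742). Eda correlated with no other member beyond -0.249 or 0.230.

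Genes known to act before the pathway were listed as 8 upstream regulators, all tested. Of these 1 rose in 2KO, none fell and 7 did not pass, with a median log2 fold change of -0.19 against -0.02 over all tested genes. The shares over all tested genes were 6.61% higher and 2.42% lower. Ctnnb1 encodes β-catenin, the transducer of WNT signals that acts before Edar in the placode. It was at 2856, 2481 and 2832 CPM in 2KO, against 1762, 1358 and 1595 CPM in control (log2 fold change 0.79, SE 0.18, edgeR adjusted p = 0.0231). The groups did not overlap, and the call was lost without control replicates 2 (0.109) or 3 (0.0695) and without both replicate-3 libraries (adjusted p = 0.146). Lef1, the partner of β-catenin, was at 203 ± 62.0 CPM in 2KO and 291 ± 9.92 CPM in control (adjusted p = 0.218). Trp63, which encodes the p63 factor of stratified epithelium, was at 1256 ± 87.0 CPM in 2KO and 1798 ± 137 CPM in control. It missed the threshold in edgeR (adjusted p = 0.0872) and passed it as lower with DESeq2 (0.0360) and limma-voom (0.0380); it is named here after its values were seen.

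The relay from the receptor to NF-κB was represented by 23 genes, from the protease Furin through the TRAF and IKK genes to the NF-κB subunits. None passed the threshold in edgeR, 1 passed as higher and 1 as lower with DESeq2, and none with limma-voom. Over all genes DESeq2 called 1415 higher and 733 lower, and limma-voom 1031 higher and 402 lower. In edgeR 9.02% of all tested genes passed. Fold changes lay above 0 for 8 and below 0 for 15 (median log2 fold change -0.09). The genes called by DESeq2, named after their values were seen, were Traf3 and Nfkbia. Traf3, an inhibitor of the noncanonical NF-κB route, was at 102, 98.9 and 67.0 CPM in 2KO and at 47.1, 56.8 and 53.6 CPM in control (edgeR adjusted p = 0.0544, DESeq2 adjusted p = 0.0133). Nfkbia, which encodes the inhibitor IκBα, was at 90.2, 52.7 and 64.2 CPM in 2KO and at 233, 122 and 78.6 CPM in control (edgeR adjusted p = 0.116, DESeq2 adjusted p = 0.0313). Traf3 did not overlap between the groups, while Nfkbia did. Chuk, which encodes a kinase of the IκB kinase complex, was at 51.6 ± 8.59 CPM in 2KO and 42.3 ± 2.85 CPM in control. Ikbkg, the gene of the regulatory subunit of the complex, was at 51.3 ± 3.66 CPM in 2KO and 57.4 ± 1.79 CPM in control.

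Targets of EDAR in mouse skin and teeth were listed as 19 symbols, of which 18 had a row and 15 were tested. The symbol without a row, Ccn2, is another name of Ctgf, which had a row. Of the 15, 2 fell in 2KO, 1 rose and 12 did not pass, with a median log2 fold change of -0.29. Over all tested genes 2.42% fell and 6.61% rose. Sostdc1 encodes a secreted inhibitor of BMP and WNT signals made around the placode. It was at 76.8, 17.4 and 19.2 CPM in 2KO replicates 1, 2 and 3, against 316, 218 and 300.3 CPM in control replicates 1, 2 and 3. All 3 libraries labelled 2KO lay far below the control range (log2 fold change -2.88, SE 0.53, edgeR adjusted p = 0.0101). The call held without any single library and was lost without both replicate-3 libraries (-2.50, adjusted p = 0.113). Shh, the hedgehog ligand of the hair germ, was at 22.8 ± 12.0 CPM in 2KO and 87.7 ± 26.1 CPM in control (edgeR adjusted p = 0.0120, and 0.0512 without 2KO replicate 2 and 0.0965 without both replicate-3 libraries). Bmp4, a BMP ligand, was at 107, 80.5 and 68.2 CPM in 2KO and 43.4, 44.4 and 35.0 CPM in control (adjusted p = 0.0172, and 0.0763 without control replicate 3, 0.0586 with Xist as a covariate, 0.0599 without both replicate-1 libraries and 0.0788 without both replicate-3 libraries).

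Other tested targets did not pass the threshold. Fgf20, a ligand that EDAR signals switch on in the placode, was at 1.22, 0.935 and 1.02 CPM in 2KO and at 3.02, 2.55 and 3.04 CPM in control. These levels came from 31, 28 and 26 counts in 2KO and 85, 79 and 93 counts in control. The Fgf20 groups did not overlap and the gene missed the threshold (log2 fold change -1.44, SE 0.55, edgeR adjusted p = 0.159). Foxi3, a forkhead factor of the placode, was at 79.4 ± 34.8 CPM in 2KO and 97.1 ± 8.86 CPM in control, and Wnt10b at 47.6 ± 8.24 CPM in 2KO and 48.4 ± 13.5 CPM in control. Dkk4, a WNT inhibitor of the early placode, was at 1.20 ± 0.984 CPM in 2KO and 1.57 ± 0.548 CPM in control. Madcam1, Ltb and Cxcl11 had too few counts to be tested. In the same libraries 3 of 10 follicle markers fell and none rose: Shh, the transcription factor gene Msx2 (16.4 ± 3.93 CPM in 2KO and 32.7 ± 2.70 CPM in control) and the progenitor marker Lgr5 (12.9 ± 10.7 CPM in 2KO and 119 ± 70.8 CPM in control). For this list and the marker lists below, the shares over all tested genes were 2.42% lower and 6.61% higher in 2KO. Fold changes of the 10 follicle markers lay above 0 for 3 and below 0 for 7. Among those above 0, Krt17 was at 790 ± 217 CPM in 2KO and 428 ± 85.8 CPM in control (edgeR adjusted p = 0.0514). The summed level of the follicle markers, most of it Krt5 and Krt14, was 16033 to 24315 CPM in 2KO and 11620 to 22188 CPM in control. This sum therefore says little of the other follicle markers. Of 7 interfollicular markers 1, Krt77, fell (1.80 ± 0.930 CPM in 2KO and 25.2 ± 15.8 CPM in control) and none rose. Fold changes lay above 0 for 3 of the 7 and below 0 for 4. Krt10 was at 698 ± 421 CPM in 2KO and 2752 ± 1482 CPM in control (edgeR adjusted p = 0.0598). Krt1 was at 1475 ± 821 CPM in 2KO and 4666 ± 2615 CPM in control (edgeR adjusted p = 0.101). The summed level of the 7 was 1183 to 3682 CPM in 2KO and 3068 to 11429 CPM in control. Of 7 tested dermal papilla markers 1 fell and none rose. It was Prdm1, a transcriptional repressor gene also known from epidermis and sebaceous gland, at 20.6 ± 7.02 CPM in 2KO and 80.3 ± 25.7 CPM in control (edgeR adjusted p = 0.00613). Prdm1 went against most of its list, in which fold changes lay above 0 for 5 of the 7 and below 0 for 2 (median log2 fold change 0.39). Msx2, Lgr5, Krt17, Krt77, Krt10, Krt1 and Prdm1 are named after their values were seen. The summed level of all 8 dermal papilla markers was 154 to 312 CPM in 2KO and 121 to 282 CPM in control. For 6 immune markers it was 1.94 to 5.14 CPM in 2KO and 4.29 to 6.88 CPM in control, and for 5 endothelial markers 3.47 to 13.6 CPM in 2KO and 3.81 to 9.87 CPM in control. The part of follicle cell makeup in the values of Edaradd, Shh and Sostdc1 was not tested.

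**Figure D4:**
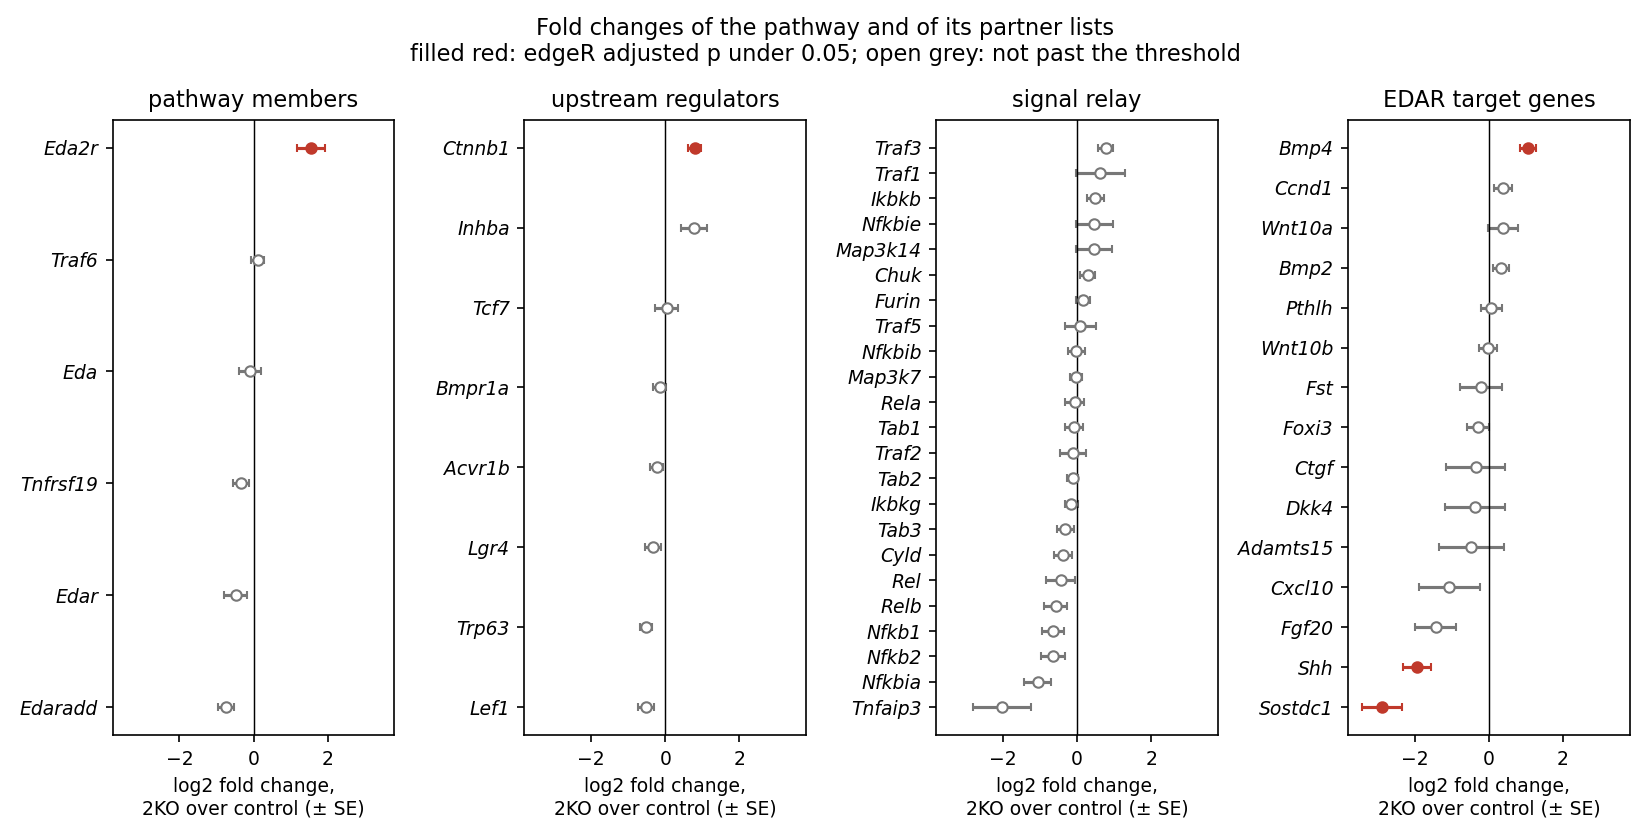
Log2 fold change of 2KO over control (x axis, ± SE of edgeR's fit) for the 6 pathway members, 8 upstream regulators, 23 relay genes and 15 tested EDAR targets. Filled red points passed an adjusted p under 0.05: Eda2r, Ctnnb1 and Bmp4 to the right of 0, Shh and Sostdc1 to the left.

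**Figure D5:**
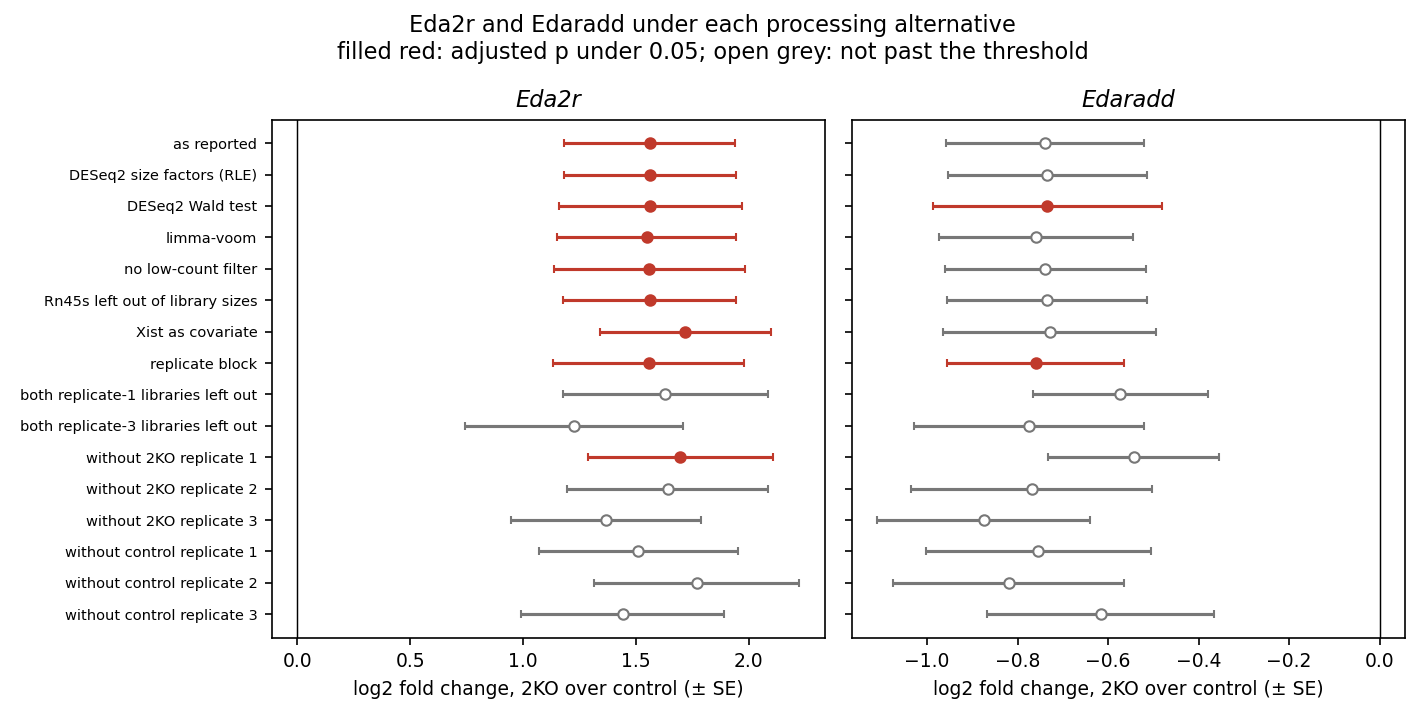
Log2 fold change of 2KO over control (x axis, ± SE) of Eda2r and Edaradd as reported and under 15 alternatives, filled red where the adjusted p was under 0.05. Eda2r stays between 1.23 and 1.77 and Edaradd between -0.88 and -0.54, and Edaradd passes the threshold with DESeq2 and with the replicate block.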

How the data were processed

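RNA was measured in 6 libraries of FACS-sorted newborn skin cells (3 labelled 2KO, 3 labelled control). Per the labels' protocols, total RNA was amplified with the Ovation RNA-seq System and sequenced as single reads, with no molecular identifiers named. The deposited values are raw counts of reads per gene symbol, 1 file per library. Per the submitters' processing notes reads were handled with HTSeq 0.6.1, TopHat2 2.0.13, DESeq2 1.6.3 and Cufflinks 2.2.1 on mm10; the sources used here give no role for each, no annotation and no strand setting.

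From the counts, genes were kept by filterByExpr and scaled by TMM in edgeR 4.0.16 (R 4.3.3). Groups were compared by its quasi-likelihood test with no covariate, with Benjamini-Hochberg adjustment over all 14972 tested genes. SE is the log2 fold change over the square root of F, and 95% intervals use the fit's degrees of freedom. Log2 CPM for correlations used a prior count of 2. Of the rows, 4549 were at 0 in all libraries, and Rn45s took 2.35% to 10.3% of a library. The analysis was tested on simulated data. One count was worth 0.0323 to 0.0392 CPM. Alternatives were DESeq2 1.42.0 size factors and test, limma 3.58.1 (voom), no filter, Rn45s left out, Xist as covariate, a replicate block, and libraries left out. Members and gene lists were chosen with earlier results of these data known. Named genes were the members, Ring1, Rnf2, sort genes, genes past the threshold in the relay, target and upstream lists (at most 5 of lowest adjusted p per list and direction) and genes of these lists held by 2 lists. For Edar and each member past the threshold, the 3 genes of highest correlation were also named. Other genes named from the lists lay outside this rule and are to be read as named after their values were seen. Among them are Fgf20, Foxi3, Wnt10b, Dkk4, Chuk, Ikbkg, Lhx2, Sox9, Pdgfra, Dcn, Lum, Col1a2 and Twist2.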

Additional observations from a re-analysis of the deposited data

How the results depend on the processing

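Eda2r stayed higher in 2KO in all 15 alternatives (log2 fold change 1.23 to 1.77) and lost its call in 7. It was 1.63 without both replicate-1 libraries, 1.23 without both replicate-3 libraries, and 1.37 to 1.77 with 1 library left out. Edaradd stayed lower in all 15, passing with DESeq2 (-0.73) and with the replicate block (-0.76), and lay between -0.88 and -0.54 with 1 library left out. For Eda2r and Edaradd the groups do not overlap, so leaving libraries out could hardly turn the sign. Edar (-0.69 to -0.22) and Tnfrsf19 (-0.48 to -0.11) kept their sign with 1 library left out. Eda (-0.29 to 0.16) turned to 0.09 without 2KO replicate 2 and to 0.16 without control replicate 2. Traf6 (0.01 to 0.23) turned to -0.10 without both replicate-3 libraries. No fit called Eda, Edar, Tnfrsf19 or Traf6. Ring1 turned to 0.043 with the Xist covariate, and Rnf2 to -0.054 without both replicate-3 libraries. Ly6a turned to -0.45 with the Xist covariate, -0.059 without both replicate-1 libraries, -0.34 without 2KO replicate 2 and -0.040 without control replicate 1 (-0.34 to 0.53 with 1 library left out). The causes were not tested.

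Over all genes 989 rose (309 without both replicate-3 libraries, 615 to 854 with 1 library left out). In all, 362 fell (733 with DESeq2, 228 with the Xist covariate, 72 without both replicate-3 libraries, 184 to 347 with 1 left out). Relay genes gave 1 higher and 1 lower call with DESeq2 and with no filter, 3 lower with the replicate block, and 0 to 1 either way with 1 library left out. Targets gave 0 higher with the Xist covariate, without both replicate-1 and without both replicate-3 libraries, 0 lower without both replicate-3 libraries, and 0 to 1 higher and 1 to 2 lower with 1 left out. Upstream regulators gave 0 higher without both replicate-3 libraries, 1 lower with DESeq2 and with limma-voom, and 0 to 1 higher with 1 left out.

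The labels do not say whether replicate numbers pair the samples. Same-numbered libraries correlated at 0.290, 0.089 and -0.0756 in their deviations from the group means. Libraries of unlike number correlated at -0.266 to 0.212, so these values do not settle whether the samples were paired. With the replicate block 1142 genes were called higher and 540 lower in 2KO. Under the replicate block Eda2r kept its call (adjusted p = 0.0405), Edaradd gained one (0.0317), and Nfkb1, Nfkbia, Tnfaip3 and Cxcl10 gained calls as lower. Not every library correlated best with its own number. Between 78 and 121 counts per control library limit the precision for Eda2r.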

Other observations

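Feedback genes of NF-κB were uneven among the control libraries. Tnfaip3, which encodes the inhibitor A20, was at 109, 19.1 and 45.3 CPM in 2KO replicates 1, 2 and 3, against 527, 96.0 and 84.8 CPM in control replicates 1, 2 and 3. Replicate 1 was thus the highest library of each group. The log2 fold change was -2.03 (SE 0.77, edgeR adjusted p = 0.157). Nfkbia was also highest in replicate 1 of each group, at 90.2 CPM in 2KO and 233 CPM in control. Both genes were chosen after their values were seen, as was the subunit gene Nfkb1, at 117 ± 40.3 CPM in 2KO and 184 ± 60.6 CPM in control (adjusted p = 0.231).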
